A study of Homo sapiens with 24 samples.

Results

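The genes described here are 37 components, inhibitors and targets of the NF-kB pathway, followed through 8 d of RAS activation in human fibroblasts. They are 5 NF-kB subunits, 5 proteins of the IkB family, 7 kinases and partners of the IKK complex, 11 receptors, adaptors and ubiquitin ligases, 3 feedback regulators (TNFAIP3, TNIP1 and CYLD) and 6 targets and partner factors. Each gene was read from a probe that carries its symbol in the platform annotation, and where a gene had several probes, from the one with the highest mean log2 value over the 24 arrays. A probe was found for 34 of the 37 genes, and BIRC3, TRAF2 and RIPK1 were not analysed here. TLR2 was above background on 0 of 24 arrays, which left 33 genes for testing out of 10952 tested on the arrays (18774 genes had a probe). Of the 33 genes, 28 were above background on every array, while ICAM1 was above it on 22, TNFAIP2 on 20, TRAF1 on 13, REL on 10 and VCAM1 on 8.

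The cells were IMR90, fibroblasts from human fetal lung, and express RAS-G12V joined to the estrogen receptor (ER:RAS-G12V), a fusion that 4-hydroxytamoxifen (4-OHT) switches on. They were grown in 100 nM 4-OHT for 2, 8 or 24 h or for 2, 4, 6 or 8 d, and were compared with untreated cells that carry the same fusion (0 h). Illumina human-6 v2 BeadChips were used, with 3 biological replicates per time point that the labels call batch A, B and D. Cells without the fusion and untreated cells of later times were not analysed here, so the agent, the fusion protein and the time in culture cannot be told apart. Values below are normalized log2 intensities, and array values are always listed in the order A, B, D. Differences are given as log2 values ± the standard error of the fit (n = 3 arrays per time point), and a gene "rose" or "fell" where limma gave a Benjamini-Hochberg adjusted p under 0.05 over all genes tested.

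All 10 fibroblast markers were above background on all 24 arrays. Among 7 immune markers PTPRC, CD14, CD3E, LYZ and ITGAM were above background on 0 arrays, and CD68 and CSF1R on all 24. Among 5 endothelial markers CDH5 was above it on 0 arrays, KDR on 3, PECAM1 on 5, VWF on 18 and TEK on 24. Among 6 epithelial markers CDH1 and SFTPC were above it on 0 arrays, EPCAM on 4, KRT8 on 6, KRT19 on 7 and KRT18 on 24. Of 8 genes of RAS output, such as DUSP6 and SPRY4, 3 rose at 2 h, and their summed intensity was 10288 to 10981 at 2 h against 6230 to 6884 at 0 h. HRAS read 0.41 higher at 24 h than at 0 h (adjusted p = 0.0426) and did not pass at the other times, and ESR1 was above background on 0 arrays. In bulk RNA, fewer cells of a type and less RNA per cell cannot be told apart.

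NF-kB is a family of dimeric transcription factors built from RELA, RELB, REL and the p50 and p52 proteins made from NFKB1 and NFKB2. In resting cells IkB proteins hold the dimers in the cytoplasm. Signals from TNF, interleukin-1 and Toll-like receptors pass through adaptors and ubiquitin chains to the TAK1 kinase (MAP3K7) and the IKK complex, which marks IkB proteins for destruction and frees the dimers. Many targets of the freed dimers are parts of the pathway itself, among them NFKBIA, the deubiquitinating enzyme A20 (TNFAIP3) and its partner ABIN1 (TNIP1), which damp the signal. In senescent fibroblasts NF-kB and C/EBPβ are known as drivers of the inflammatory secretome. The arrays measure mRNA and not the breakdown of IkB or the entry of dimers into the nucleus.

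The promoters of these genes were searched for GGG, any 2 bases and then TTTCC, a common form of the kB element (the kB letters), on both strands of windows from 250 bases before to 50 bases after each gene's start (RefSeq sequences, build GRCh38.p14). A window was found for 32 of the 37 genes (54 windows in all), and RELB, NFKBIE, IKBKB, RIPK2 and CEBPD had none in the sequence table. The letters were present in 11 of the 32 genes (34.4%), against 2.33% of the 27305 genes with a window. A gene counted if any of its windows held them, and the 27305 genes had 35116 windows, of which 1.91% held the letters. The 37 genes include targets of the pathway by choice, so these shares are not a test. Among the genes whose mRNA rose at 4 d against 2 d, 6 of 11 with a window held the letters (54.5%), and among the other 21 genes 5 did (23.8%). These 21 include BIRC3, RIPK1, TRAF2 and TLR2, whose mRNA was not tested, and BIRC3 is among the 5 with the letters. TGANTCA (N is any base), the letters of an AP-1 element, was searched in the same way, and cannot overlap the kB letters. It was present in 3 of the 32 genes (9.38%) and in 9.37% of all genes, and in 0 of the 11 that rose. These matches are a description of sequence and do not show that a site is bound. The stretches of 60 bases below are shown for 5 of the genes that rose, with the kB letters in capitals, each written 5′ to 3′ on the strand on which the match starts with GGG and ends with TTTCC.
NFKB1 (chr4:102501285-102501344, plus strand): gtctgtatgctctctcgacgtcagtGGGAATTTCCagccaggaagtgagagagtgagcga
NFKB2 (chr10:102395659-102395718, plus strand): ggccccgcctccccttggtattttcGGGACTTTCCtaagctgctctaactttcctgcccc
NFKBIA (chr14:35404796-35404855, plus strand): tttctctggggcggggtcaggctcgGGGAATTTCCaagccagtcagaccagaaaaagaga
NFKBIZ (chr3:101827742-101827801, plus strand): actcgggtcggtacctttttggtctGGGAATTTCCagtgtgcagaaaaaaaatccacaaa
TNIP1 (chr5:151081042-151081101, minus strand): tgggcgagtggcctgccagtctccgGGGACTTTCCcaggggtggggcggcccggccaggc
The same letters occur in genes whose mRNA did not pass the test at 4 d against 2 d, of which 3 are shown for comparison.
REL (chr2:60881503-60881562, minus strand): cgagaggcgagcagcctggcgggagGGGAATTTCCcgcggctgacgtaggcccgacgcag
TRAF3 (chr14:102777391-102777450, plus strand): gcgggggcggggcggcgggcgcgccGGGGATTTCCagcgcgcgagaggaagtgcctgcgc
CYLD (chr16:50741872-50741931, minus strand): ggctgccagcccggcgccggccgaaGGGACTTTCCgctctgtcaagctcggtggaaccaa
TNFAIP3 is shown with its whole window on the gene's own strand, because it holds 2 matches next to each other, which on this strand read as the reverse complement.
TNFAIP3 (chr6:137867009-137867308, plus strand): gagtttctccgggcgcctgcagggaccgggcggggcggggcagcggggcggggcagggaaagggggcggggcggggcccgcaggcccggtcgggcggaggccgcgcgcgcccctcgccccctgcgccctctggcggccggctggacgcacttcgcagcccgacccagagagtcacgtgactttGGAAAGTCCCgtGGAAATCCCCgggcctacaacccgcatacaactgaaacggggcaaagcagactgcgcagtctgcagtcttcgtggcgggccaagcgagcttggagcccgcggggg

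In the fit of all 24 arrays the mRNA of the pathway moved in 2 stages. At 24 h 11 of the 33 genes were lower than in untreated cells, where 11.2% of all genes fell. The 11 were led by CEBPD, SOD2, NFKBIA and TNFAIP3 and included 3 of the 5 IkB genes. The number of genes that passed in this first stage depended on the arrays used. Genes passing at 24 h in either direction dropped from 14 to 3 when batch A was omitted, and to 5 when batch B was. At 6 and 8 d CEBPD, SOD2, NFKBIA, TNFAIP3, NFKBIE, NFKBIZ and TNIP1 were higher than in untreated cells. So were the subunits NFKB2 and RELB, the kinase IKBKE and ICAM1. RELA, REL and the adaptor MYD88 passed the test in none of the 9 comparisons. Over the whole course 24 of the 33 genes passed limma's F-test, a share near that of all genes tested (69.7%).

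**Figure D1:**
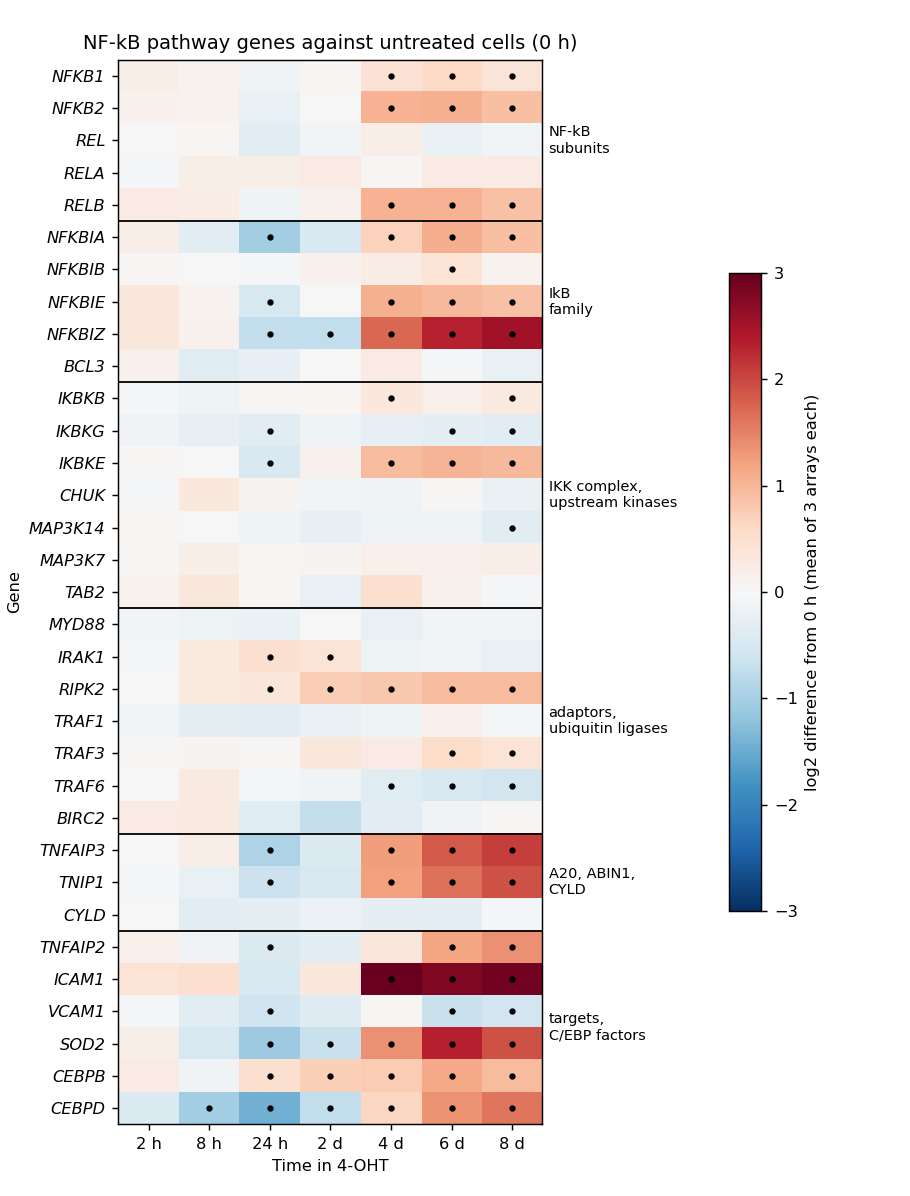
Log2 difference of each of the 33 genes from 0 h (colour, red higher and blue lower, with the scale ending at 3 on either side) at each time in 4-OHT, grouped by role, with a dot where limma's adjusted p was under 0.05. NFKBIA, NFKBIE, NFKBIZ, TNFAIP3, TNIP1, SOD2 and CEBPD are blue at 24 h and red from 4 d, with ICAM1 at 2.96, 2.81 and 2.89 at 4, 6 and 8 d.

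At 2 h no gene of the 33 rose or fell by limma, where 0.621% of all genes did. At an unadjusted p under 0.05 the count was 2 of 33 (6.06%), against 6.8% of all genes. At 8 h 1 gene fell and none rose, where 4.58% of all genes changed. It was CEBPD, the gene of C/EBPδ, a factor that responds early to inflammatory signals. It read 7.52, 7.38 and 7.73 at 8 h, against 8.45, 8.30 and 9.01 at 0 h, a difference of −1.05 ± 0.23 (adjusted p = 0.00775). The 8 h arrays all lay below the 0 h arrays. The call was lost without 0 h D (CEBPD −0.83, adjusted p = 0.0811), without 8 h B (−0.96, 0.0534), without batch A (−1.10, 0.239) and with batch B left out (−1.11, 0.053).

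At 24 h 11 of the 33 genes fell and 3 rose, where 18.1% of all genes changed (11.2% fell and 6.89% rose). Their median was −0.24, against −0.00 over all genes, and 3 of them fell by at least 2-fold, as did 1.62% of all genes. The 24 h arrays did not overlap the 0 h arrays for 14 lower and 3 higher genes, among them all that passed, where 21.2% and 17.1% of all genes had no overlap in these directions.

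In the IkB family 3 of 5 genes fell at 24 h. NFKBIA, which encodes IkBα, the main cytoplasmic inhibitor, read 9.94, 9.86 and 10.30 at 24 h, against 11.15, 10.99 and 11.09 at 0 h, and fell by 1.04 ± 0.17 (adjusted p = 0.000106). NFKBIZ, a nuclear IkB protein that helps switch on IL6 and other secondary targets, read 7.89, 7.85 and 7.79 at 24 h, against 8.79, 8.61 and 8.31 at 0 h, and fell by 0.73 ± 0.18 (adjusted p = 0.00681). NFKBIE, a further cytoplasmic inhibitor, read 6.83, 6.65 and 7.06 at 24 h, against 7.43, 7.18 and 7.40 at 0 h, and fell by 0.49 ± 0.16 (adjusted p = 0.0346). For all 3 the highest 24 h array was below the lowest 0 h array.

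A20 and its partner fell alongside them. TNFAIP3 read 6.14, 6.15 and 6.15 at 24 h, against 7.33, 7.05 and 6.86 at 0 h, and fell by 0.93 ± 0.17 (adjusted p = 0.000574). TNIP1 read 8.20, 8.24 and 8.28 at 24 h, against 9.02, 8.73 and 8.93 at 0 h, and fell by 0.65 ± 0.18 (adjusted p = 0.0124). The 24 h arrays of both genes lay within 0.1 of one another and below every 0 h array, while CYLD, a deubiquitinating enzyme that acts at the same level, did not pass (−0.29).

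Among the targets, CEBPD fell by 1.44 ± 0.23 at 24 h (7.17, 7.05 and 7.23, against 8.45, 8.30 and 9.01 at 0 h; adjusted p = 8.36e-05). SOD2, the mitochondrial superoxide dismutase, read 9.29, 9.36 and 9.37 at 24 h, against 10.74, 10.49 and 10.07 at 0 h, and fell by 1.09 ± 0.21 (adjusted p = 0.000872). TNFAIP2 (−0.44 ± 0.15) also fell, and so did VCAM1, an adhesion molecule that was above background on 0 of 3 arrays at 24 h and 2 of 3 at 0 h, which makes its fall at least 1.14-fold. The IKK subunit NEMO (IKBKG, −0.33 ± 0.11) and the IKK-related kinase IKBKE (−0.45 ± 0.15) were the other 2 that fell.

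The 3 genes that rose at 24 h were CEBPB (0.49 ± 0.14, adjusted p = 0.0152), which encodes C/EBPβ, and 2 kinases of receptor signalling, IRAK1 (0.49 ± 0.11, adjusted p = 0.00307), which acts below interleukin-1 and Toll-like receptors, and RIPK2 (0.35 ± 0.11, adjusted p = 0.0294), which acts below NOD receptors. With median centring in place of quantile normalization, which shifted the median of all genes by −0.13 at 24 h, the split was 0 higher and 10 lower. The count of 14 was 8 without 0 h A, without 0 h D or without 24 h B, 3 without batch A and 5 without batch B, and the genes called in all settings were NFKBIA, TNFAIP3 and CEBPD. Of the 10 fibroblast markers 7 fell at 24 h (median −0.89), and their summed intensity was 37723 to 39519 at 24 h against 55605 to 61762 at 0 h. Of 4 endothelial markers 2 fell (452 to 548 at 24 h against 720 to 920 at 0 h), of 4 epithelial markers 1 fell (1143 to 1491 against 1203 to 1434) and of 2 immune markers 1 rose (1473 to 1569 against 1161 to 1281). The part of these markers in the results was not tested.

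At 2 d 3 genes rose and 3 fell against 0 h, where 23.6% of all genes changed. RIPK2 (0.74 ± 0.11), CEBPB (0.71 ± 0.14) and IRAK1 (0.40 ± 0.11) were higher, and CEBPD (−0.75 ± 0.23), NFKBIZ (−0.73 ± 0.18) and SOD2 (−0.67 ± 0.21) were lower. The split was 2 higher and 5 lower with median centring, and the count of 6 was 1 without batch A, 2 without batch B and 10 without batch D. The call of RIPK2 was kept in every setting. At 2 d 6 of 10 fibroblast markers were lower than at 0 h (summed intensity 34821 to 37077 at 2 d against 55605 to 61762 at 0 h), 2 of 2 immune markers tested were higher (2205 to 2280 against 1161 to 1281) and 2 of 4 epithelial markers were lower (918 to 1005 against 1203 to 1434); 1 of 4 endothelial markers was lower (343 to 375 against 720 to 920). Their part in these results was not tested.

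**Figure D2:**
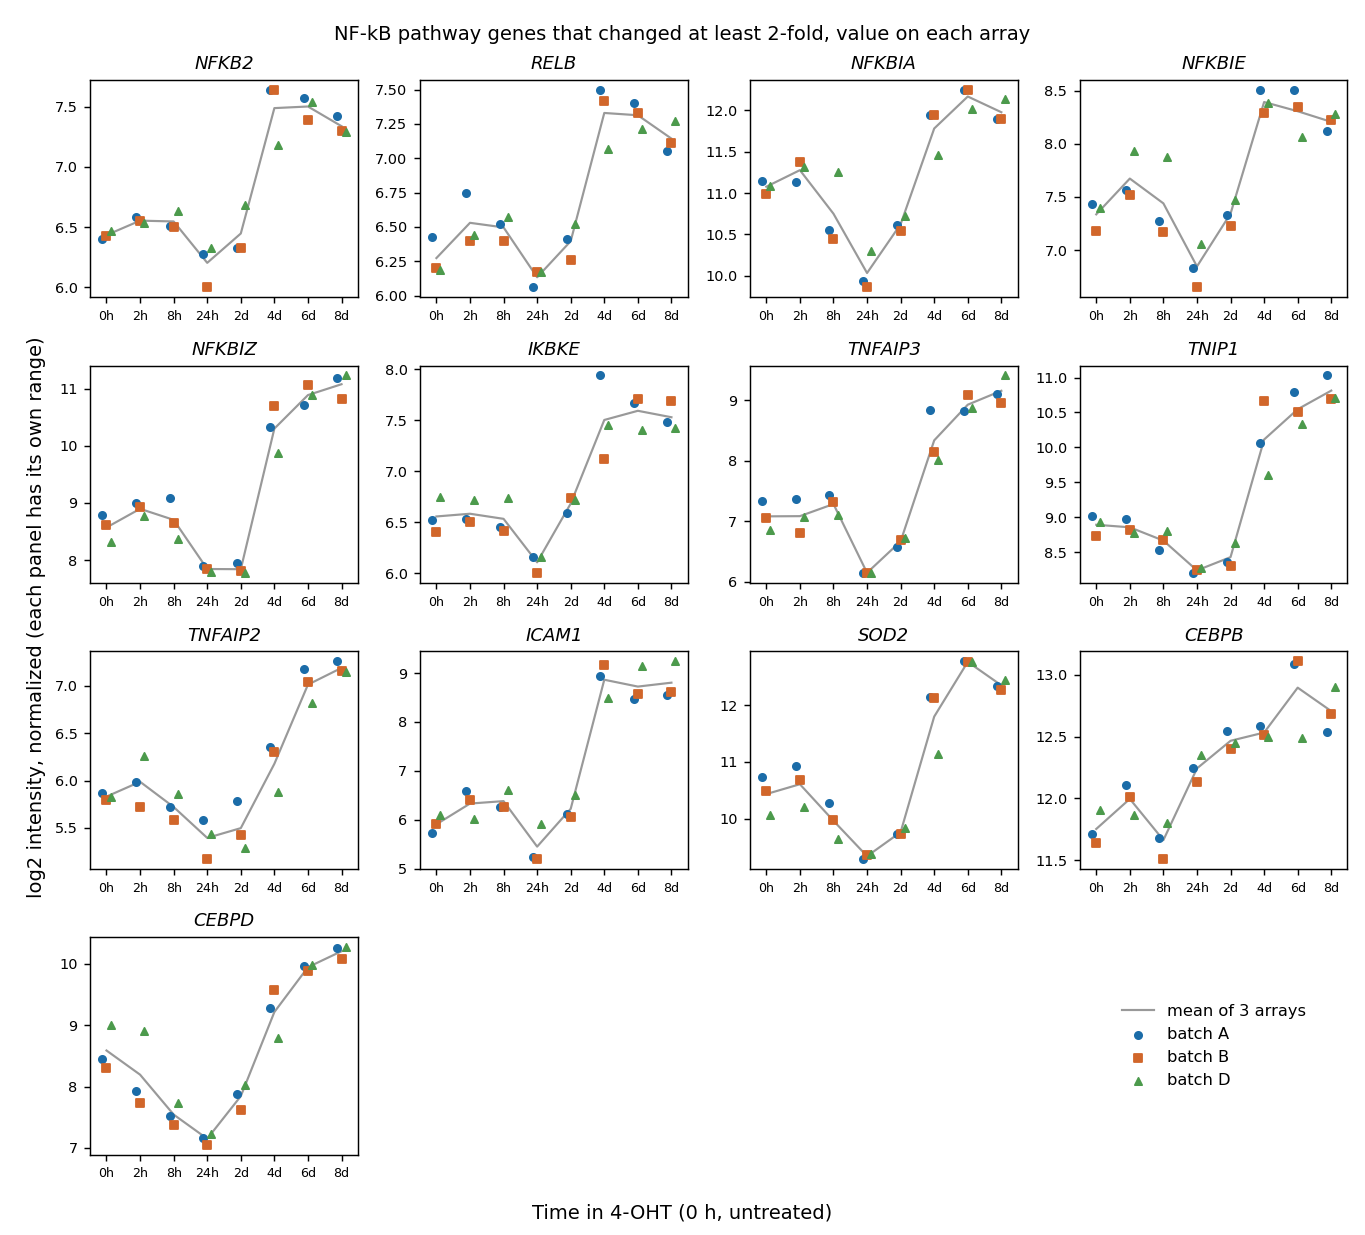
Normalized log2 intensity of the 13 genes that passed with a change of at least 2-fold in any comparison, on each array (symbols by batch) over the 8 time points, with a line through the mean of 3 arrays; every panel has its own vertical range. NFKBIA, NFKBIZ, TNFAIP3, TNIP1 and SOD2 are lowest at 24 h or 2 d and lie above every 0 h array from 4 d, and CEBPB lies above every 0 h array from 24 h on.

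Between 2 d and 4 d 14 of the 33 genes rose and 1 fell, where 36.2% of all genes changed (17% rose and 19.2% fell). Of the 14, 9 rose by at least 2-fold, as did 3.44% of all genes. The median of the 33 genes was 0.30, against −0.01 over all genes. The arrays of 4 d and 2 d did not overlap for 16 higher and 4 lower genes, among them the 15 that passed, where 22.3% and 25.1% of all genes had no overlap in these directions.

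Of the 5 subunits, 3 rose. NFKB2, the precursor of p52, read 7.64, 7.64 and 7.18 at 4 d, against 6.33, 6.33 and 6.68 at 2 d, and rose by 1.04 ± 0.12 (adjusted p = 5.89e-07). RELB, the usual partner of p52, read 7.50, 7.42 and 7.07 at 4 d, against 6.41, 6.26 and 6.52 at 2 d, and rose by 0.93 ± 0.12 (adjusted p = 2.2e-06). In both genes the smallest step was in batch D, at 0.50 for NFKB2 and 0.55 for RELB.

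NFKB1, the precursor of p50, rose by a smaller amount, 0.37 ± 0.11 (11.07, 10.82 and 10.98 at 4 d, against 10.65, 10.51 and 10.60 at 2 d; adjusted p = 0.014), a call lost without 2 d B (NFKB1 0.33, adjusted p = 0.0608), without 4 d A (0.31, 0.0645), without batch A (0.35, 0.173) and without batch B (0.40, 0.0561). RELA, the main activating subunit, read 6.15, 6.15 and 6.03 at 4 d, against 6.33, 6.36 and 6.26 at 2 d. It did not pass, and the 95% interval of its difference ran from −0.50 to 0.09. REL, on a dim probe, had an interval of −0.00 to 0.60.

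The IkB genes that had fallen at 24 h were those that rose at 4 d. NFKBIZ made the second largest step of the 33 genes, at 10.33, 10.70 and 9.87 at 4 d against 7.95, 7.80 and 7.77 at 2 d, which is 5.5-fold (2.46 ± 0.18, adjusted p = 1.14e-09). NFKBIA read 11.94, 11.94 and 11.46 at 4 d, against 10.61, 10.54 and 10.72 at 2 d, and rose 2.23-fold (1.16 ± 0.17, adjusted p = 1.02e-05). NFKBIE read 8.51, 8.29 and 8.38 at 4 d, against 7.33, 7.23 and 7.47 at 2 d, and rose 2.07-fold (1.05 ± 0.16, adjusted p = 1.81e-05). NFKBIB (0.10) and BCL3 (0.26), the other family members, did not pass. NFKBIZ has a further probe, which was above background on 6 of 24 arrays. It differed by 0.38 at 4 d against 2 d and by −0.08 at 24 h against 0 h. With the mean of all probes the fall of NFKBIZ at 24 h did not pass (−0.40, adjusted p = 0.051).

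TNFAIP3 and TNIP1 rose by nearly the same amount. TNFAIP3 read 8.84, 8.15 and 8.02 at 4 d, against 6.58, 6.69 and 6.73 at 2 d, which is 3.18-fold (1.67 ± 0.17, adjusted p = 1.25e-07). TNIP1 read 10.06, 10.67 and 9.61 at 4 d, against 8.36, 8.30 and 8.63 at 2 d, which is 3.22-fold (1.69 ± 0.18, adjusted p = 1.39e-07). The lowest 4 d array of each gene exceeded its highest 2 d array by more than the whole spread of the 2 d arrays. A further TNIP1 probe was above background on 1 of 24 arrays.

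The largest step belonged to ICAM1, the adhesion molecule that binds leukocyte integrins. It read 8.94, 9.17 and 8.48 at 4 d, against 6.12, 6.05 and 6.51 at 2 d, which is 6.22-fold (2.64 ± 0.22, adjusted p = 7.28e-09). SOD2 read 12.14, 12.12 and 11.13 at 4 d, against 9.73, 9.73 and 9.83 at 2 d, which is 4.09-fold (2.03 ± 0.21, adjusted p = 1.41e-07). A further SOD2 probe was above background on 8 of 24 arrays, and differed by 0.71 at 4 d against 2 d and by 0.03 at 24 h against 0 h. CEBPD read 9.28, 9.57 and 8.79 at 4 d, against 7.88, 7.62 and 8.03 at 2 d, which is 2.59-fold (1.37 ± 0.23, adjusted p = 4.91e-05). These 3 genes and TNFAIP2 (0.68 ± 0.15, above background on 1 of 3 arrays at 2 d) had no overlap between the 4 d and 2 d arrays.

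Of the 7 kinases and partners of the IKK complex 2 rose. IKBKE, an IKK-related kinase that also serves interferon signalling, read 7.94, 7.12 and 7.45 at 4 d, against 6.59, 6.74 and 6.72 at 2 d, and rose by 0.82 ± 0.15 (adjusted p = 0.000195). TAB2, which links TAK1 to ubiquitin chains, rose by 0.71 ± 0.20 (adjusted p = 0.00847), a call lost with median centring (TAB2 0.73, adjusted p = 0.0509), without 4 d B (0.52, 0.0707) and without batch B (0.47, 0.188). The catalytic IKK subunits CHUK (−0.01) and IKBKB (0.27), NIK (MAP3K14, 0.08) and TAK1 (MAP3K7, 0.09) did not pass. IRAK1 was the gene that fell (−0.56 ± 0.11, adjusted p = 0.000329), to 10.20, 10.16 and 10.34 at 4 d against 10.85, 10.80 and 10.74 at 2 d, a call lost with median centring (IRAK1 −0.50, adjusted p = 0.0683). Of the adaptors and ubiquitin ligases, 0 of 7 rose by limma.

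The array of 4 d batch D stood lower than the other 4 d arrays: it was the lowest of the 3 for 10 of the 14 genes that rose. Within batches the median step of these 14 genes from 2 d to 4 d was 1.34 in A, 1.35 in B and 0.75 in D, and 14 of 14 were above 0 in each batch. The call was kept in every setting and with every array or batch left out for 12 of the 14, the exceptions being NFKB1 and TAB2. Markers of other cells moved in part. VWF (1.34) and TEK (1.34) of 4 endothelial markers tested, and PECAM1 (at least 1.07-fold), rose at 4 d against 2 d, with CDH5 above background on 0 arrays and a summed intensity of 673 to 942 at 4 d against 343 to 375 at 2 d. Of 10 fibroblast markers 5 rose (summed intensity 44619 to 46857 at 4 d against 34821 to 37077 at 2 d), and of the 2 immune markers tested, CD68 and CSF1R, none passed. The part of these markers in the result was not tested.

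**Figure D3:**
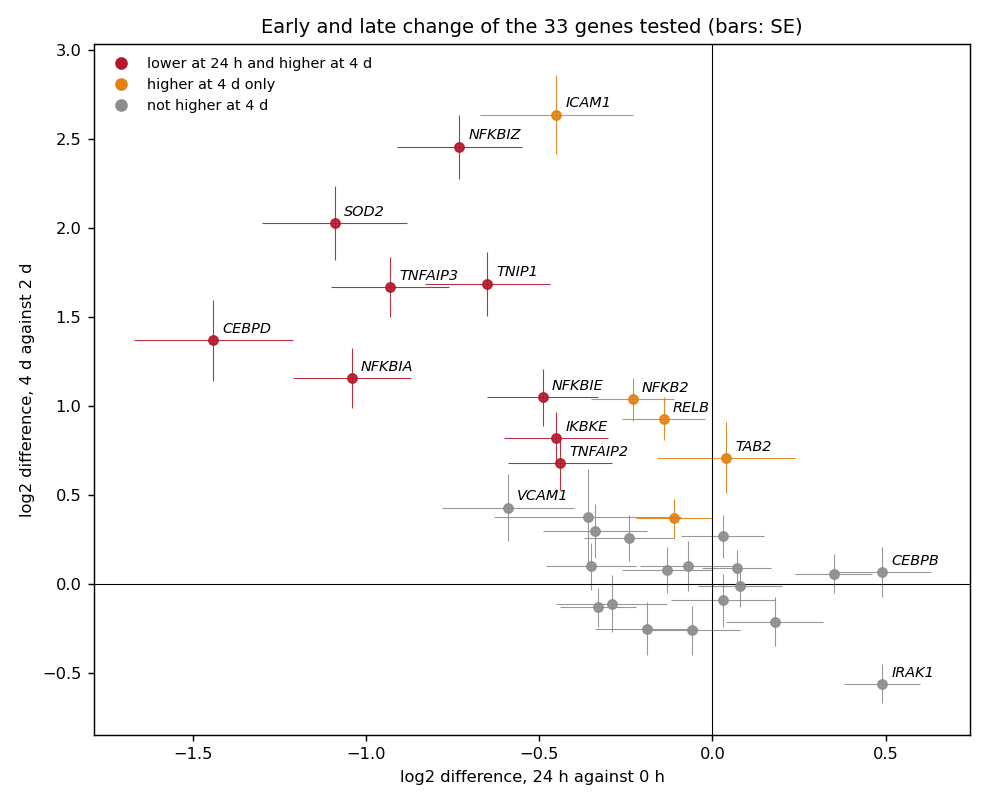
Log2 difference at 24 h against 0 h (horizontal) and at 4 d against 2 d (vertical) for each of the 33 genes, with standard errors as bars; red marks the 9 genes that fell at 24 h and rose at 4 d, orange the other 5 that rose at 4 d and grey the rest. The genes that fell most at 24 h lie high on the vertical axis, and IRAK1 stands at the lower right.

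Of the 14 genes that rose at 4 d, 9 had fallen at 24 h, namely NFKBIA, NFKBIE, NFKBIZ, IKBKE, TNFAIP3, TNIP1, TNFAIP2, SOD2 and CEBPD. The call at 24 h was kept in every setting for NFKBIA, TNFAIP3 and CEBPD. It was lost in 12 of 16 settings for TNFAIP2, 11 for IKBKE, 7 for NFKBIE, 3 for NFKBIZ, 2 for TNIP1 and 1 for SOD2. Over all 10952 genes tested, 1862 rose at 4 d against 2 d, and 518 of these had fallen at 24 h against 0 h. The 518 are 4.73% of all genes tested, a share to set beside 9 of the 33 and not beside 9 of the 14. The comparisons of 24 h against 0 h and of 4 d against 2 d share no array. Across the 33 genes the differences had a Pearson correlation of −0.698 and a Spearman correlation of −0.75, and across all 10952 genes −0.374 and −0.344. Genes are not independent replicates, so the correlations describe these arrays and carry no test. The other 5, NFKB1, NFKB2, RELB, TAB2 and ICAM1, did not pass at 24 h, where ICAM1 read 5.25, 5.20 and 5.91 against 5.73, 5.91 and 6.09 at 0 h, with arrays that overlap. ICAM1 was above background on 1 of 3 arrays at 24 h, which limits how far a fall could be measured.

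Compared with untreated cells, 15 genes were higher and 1 was lower at 4 d (44.1% of all genes changed and 21.8% rose), 17 were higher and 3 lower at 6 d (45.5% changed and 23.8% rose), and 17 were higher and 4 lower at 8 d (47.6% changed and 24.1% rose). These comparisons share the 3 arrays of 0 h. At least 2-fold rises were seen in 8 genes at 4 d (4.14% of all genes), 12 at 6 d (4.59%) and 7 at 8 d (4.74%). The median over the 33 genes at 8 d was 0.30, against 0.02 over all genes. The 2 immune markers tested, CD68 and CSF1R, were higher than at 0 h at each of these times (summed intensity of the 7 immune markers 2115 to 2302 at 8 d against 1161 to 1281 at 0 h), with PTPRC, CD14, CD3E, LYZ and ITGAM above background on 0 arrays. Of 10 fibroblast markers 5, 5 and 7 were lower than at 0 h at 4, 6 and 8 d (summed intensity 29807 to 31498 at 8 d against 55605 to 61762 at 0 h), as were 3, 4 and 3 of 4 epithelial markers (894 to 961 at 8 d against 1203 to 1434 at 0 h), while 2, 1 and 1 of 4 endothelial markers were higher (572 to 753 at 8 d against 720 to 920 at 0 h). Their part in these results was not tested. In every setting 11 of the 16 calls were kept at 4 d, 15 of 20 at 6 d and 14 of 21 at 8 d.

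**Figure D4:**
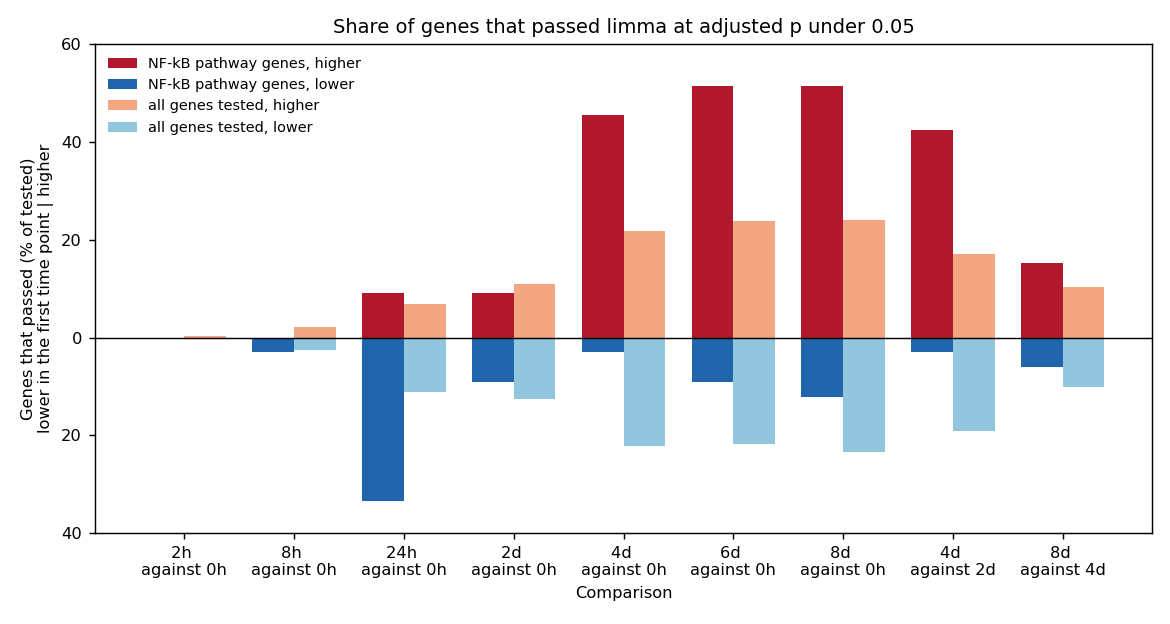
Share of the 33 NF-kB pathway genes and of all 10952 genes tested (vertical, in percent) that passed limma in each comparison, with higher genes above the zero line and lower genes below it. The NF-kB pathway genes exceed all genes on the lower side at 24 h (11 of 33) and on the higher side at 4 d against 2 d (14 of 33).

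Against 4 d, 5 genes were higher again at 8 d and 2 were lower, a share near that of all genes, of which 20.4% changed (10.4% rose). TNFAIP2 read 7.26, 7.16 and 7.15 at 8 d, against 6.35, 6.30 and 5.88 at 4 d, and rose by 1.01 ± 0.15 (adjusted p = 3.68e-05). CEBPD read 10.26, 10.08 and 10.27 at 8 d, against 9.28, 9.57 and 8.79 at 4 d, and rose by 0.99 ± 0.23 (adjusted p = 0.00279). The 8 d arrays of both genes lay above every 4 d array.

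TNFAIP3, NFKBIZ and TNIP1 also rose over 4 d, by 0.82 ± 0.17, 0.78 ± 0.18 and 0.69 ± 0.18. TNFAIP3 read 9.10, 8.96 and 9.41 at 8 d, against 8.84, 8.15 and 8.02 at 4 d. NFKBIZ read 11.19, 10.81 and 11.23, against 10.33, 10.70 and 9.87. TNIP1 read 11.03, 10.70 and 10.71, against 10.06, 10.67 and 9.61. The steps of NFKBIZ and TNIP1 were smallest in batch B. Without batch D these calls were lost (TNFAIP3 0.53, adjusted p = 0.0652, NFKBIZ 0.48, 0.055, and TNIP1 0.49, 0.055). The TNIP1 call was also lost without 4 d D (0.44, 0.0627). The genes that fell were BCL3, a nuclear IkB protein (−0.46 ± 0.13, adjusted p = 0.0131), and VCAM1, at least 1.17-fold. The split was 3 higher and 2 lower with median centring, where NFKBIZ and TNIP1 did not pass. The count was 2 without batch A, and of the 7 calls 1, that of TNFAIP2, was kept in every setting. At 8 d against 4 d 8 of 10 fibroblast markers fell, with a summed intensity of 29807 to 31498 at 8 d against 44619 to 46857 at 4 d; their part was not tested.

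Other genes stayed near their level of 4 d. ICAM1 differed from 0 h by 2.96, 2.81 and 2.89 at 4, 6 and 8 d, and its arrays of 8 d (8.55, 8.62 and 9.24) overlapped those of 4 d. NFKB2 (1.05, 1.06 and 0.90), RELB (1.05, 1.04 and 0.87), NFKBIE (1.06, 0.97 and 0.87) and IKBKE (0.95, 1.03 and 0.97) kept differences near 1 from 0 h at the same times. None of these 5 passed at 8 d against 4 d.

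By 8 d the largest differences from 0 h were those of ICAM1 (7.42-fold), NFKBIZ (5.69-fold), TNFAIP3 (4.22-fold), TNIP1 (3.78-fold), SOD2 (3.77-fold) and CEBPD (3.06-fold). SOD2 read 12.33, 12.27 and 12.44 at 8 d, against 10.74, 10.49 and 10.07 at 0 h, with no overlap. NFKBIA read 11.90, 11.89 and 12.14 at 8 d, against 11.15, 10.99 and 11.09 at 0 h, and was 0.90 ± 0.17 higher (adjusted p = 9.88e-05). For each of these 7 genes the lowest 8 d array was above the highest 0 h array. Most of them were named for the size of their difference in this comparison, so this is not separate support. Among all 33 genes tested it held for 18, and among all genes for 28.5%. CEBPD at 4 d was the exception among calls against 0 h: it passed (0.62 ± 0.23, adjusted p = 0.0289) although its 4 d batch D array (8.79) was below the 0 h array of that batch (9.01). This CEBPD call was lost in 7 of 16 settings, with 0.50 (adjusted p = 0.118) under median centring, 0.44 (0.159) without 4 d B and 0.30 (0.433) without batch B.

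RIPK2 and CEBPB followed another course, with no dip at 24 h and no further step at 4 d. RIPK2 differed from 0 h by 0.35, 0.74, 0.80, 0.95 and 0.94 at 24 h, 2 d, 4 d, 6 d and 8 d, and CEBPB by 0.49, 0.71, 0.77, 1.14 and 0.95. At 2 d CEBPB read 12.55, 12.40 and 12.45, against 11.71, 11.64 and 11.91 at 0 h, and at 4 d 12.59, 12.51 and 12.50. The difference at 4 d against 2 d was 0.07 for CEBPB (adjusted p = 0.748) and 0.06 for RIPK2 (adjusted p = 0.695). At 6 d the CEBPB array of batch D (12.49) stood below those of A and B (13.09 and 13.11).

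Of the remaining adaptors, TRAF6, the ubiquitin ligase that serves IRAK1, fell by 0.37 ± 0.14, 0.47 ± 0.14 and 0.54 ± 0.14 against 0 h at 4, 6 and 8 d. At 8 d it read 6.23, 5.87 and 6.15, against 6.72, 6.72 and 6.42 at 0 h, with no overlap. TRAF3, which restrains NIK, was higher at 6 d (0.56 ± 0.15) and 8 d (0.41 ± 0.15), and its 0 h array of batch A (5.86) stood apart from B (6.44) and D (6.48). The TRAF3 call at 8 d was lost in 6 of 16 settings, with 0.22 (adjusted p = 0.236) without 0 h A and 0.16 (0.527) without batch A, and at 6 d in 2, median centring (0.39, 0.0738) and without batch A (0.40, 0.112). The TRAF6 call was lost at 4 d in 9 of 16 settings (−0.30, adjusted p = 0.323 without batch A), at 6 d in 1, without batch A (−0.43, 0.148), and at 8 d in 2, without batch A (−0.55, 0.0595) and without batch B (−0.38, 0.0611).

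A few kinases and inhibitors differed from 0 h by small amounts that did not hold in every setting. NIK itself (MAP3K14) was lower at 8 d (−0.34 ± 0.13), a call lost in 10 of 16 settings, which include each 0 h array, each 8 d array and each batch left out. NEMO (IKBKG) was lower at 6 d (−0.30 ± 0.11) and 8 d (−0.31 ± 0.11), and each call was lost in 6 settings, with −0.15 (adjusted p = 0.276) at 6 d without batch D and −0.22 (0.139) without 6 d D. IKBKB was higher at 4 d (0.32 ± 0.12) and 8 d (0.30 ± 0.12), calls lost in 8 and 9 settings, with 0.19 (adjusted p = 0.419) at 4 d and 0.02 (0.923) at 8 d under median centring and 0.18 (0.472) at 4 d without batch A. NFKBIB was higher at 6 d (0.41 ± 0.14), a call lost in 5 settings, with 0.18 (adjusted p = 0.489) under median centring and 0.26 (0.356) without batch A.

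The 8 genes that passed in none of the 9 comparisons were REL, RELA, CHUK, MAP3K7, MYD88, TRAF1, BIRC2 and CYLD. Their largest log2 difference in either direction ranged from 0.20 for MAP3K7 to 0.71 for BIRC2, an inhibitor-of-apoptosis ubiquitin ligase that read 7.87, 7.66 and 8.87 at 8 d. At 8 d against 0 h the 95% intervals ran from −0.06 to 0.53 for RELA, from −0.45 to 0.06 for CHUK, from −0.39 to 0.23 for MYD88, the adaptor of interleukin-1 and Toll-like receptors, and from −0.52 to 0.58 for BIRC2. CHUK (adjusted p = 0.0269), TRAF1 (0.0191) and BIRC2 (0.0262) passed the F-test over the whole course.

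Other genes of the pathway were read from lists written beside the 37. Of 17 secreted and surface targets tested, 13 rose at 4 d against 2 d and none fell, with a median of 4.10, led by CXCL1 (5.81 ± 0.32), IL6 (5.51 ± 0.36), IL1B (5.22 ± 0.30) and PTGS2 (4.98 ± 0.47). This compares with 17% of all genes that rose. Earlier results of these data had shown that secreted targets rise at this step, and it was chosen for that reason. The count for this list is therefore a description and not a test. Of 18 further adaptors and kinases 7 rose and 3 fell, with a median of 0.21. The 4 that rose most were MAP3K8 (2.08 ± 0.21), a kinase bound by the NFKB1 precursor, the IRAK family members IRAK3 (1.83 ± 0.25) and IRAK2 (1.59 ± 0.14), and SQSTM1 (1.12 ± 0.22), the autophagy receptor p62, which also binds TRAF6.

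Of 17 further brakes and ubiquitin enzymes 5 rose and 3 fell at 4 d against 2 d, where 17% of all genes rose and 19.2% fell. ZC3H12A, a ribonuclease that degrades inflammatory mRNAs, rose by 2.49 ± 0.23, and KLF2, a transcription factor known to restrain NF-kB targets, fell by 1.92 ± 0.18. TNIP3, a relative of TNIP1, rose at least 1.21-fold, but in batch D it read 5.23 at 4 d against 5.20 at 2 d. Of 8 receptors 4 rose, against the same 17% of all genes, IL1RAP (1.24 ± 0.22), IL18R1 (0.66 ± 0.25), IL1R1 (0.60 ± 0.19) and the lymphotoxin receptor LTBR (0.46 ± 0.08). IL18R1 and IL1R1 did not rise in batch D, at 5.90 and 7.26 at 4 d against 5.96 and 7.30 at 2 d, so their arrays overlap. NOD1 fell, with 0 of 3 arrays above background at 4 d and 1 of 3 at 2 d.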

How the data were processed

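Gene expression was measured in IMR90 ER:RAS-G12V cells on 24 arrays of 48701 probes. Per array, the deposited values are log2 intensities without normalization between arrays, and the deposited series matrix holds log2 values that the authors quantile-normalized; both statements are judged from the values, and no source used here names the software. With no detection p or control probes in the files used, the correction planned with control probes was replaced: values were made linear, corrected with limma's normexp model (version 3.58.1, R 4.3.3) with an offset of 16, taken to log2 again and quantile-normalized. A probe counted as above background where a model from each array's mode and lower spread gave p under 0.01 (26.5% to 30% of probes), and probes above it on at least 3 arrays were tested. Symbols came from the platform annotation (23687 probes with 1 symbol, 35 with several, 24979 with none). Where 0 arrays of the dimmer group were above background, a fold is given as "at least", against the lowest signal above background.

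Genes were fitted with limma on the 24 arrays, with a mean for each of the 8 time points and without a block (16 residual and 6.7 prior degrees of freedom), for 9 comparisons and an F-test; the number of arrays limits the precision. Arrays with the same letter may be paired, because the labels call the letters batches. The main fit did not use this pairing, and an alternative took the letter as a block. Residuals of arrays with the same letter correlated at a mean of 0.0369 (A), 0.00439 (B) and 0.0599 (D), against −0.0158 between different letters and times. Alternatives changed the offset, normalization, filter, probe choice and block, used the series matrix, and left out each array and batch. The genes with values on each array are those that passed with at least 2-fold in any comparison, and from each other list at most 4 genes with the largest change at 4 d against 2 d. The genes, lists and rules were chosen with earlier results of these data known. Promoter windows were searched with Python 3.11.15.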

Additional observations from a re-analysis of the deposited data

How the results depend on the processing

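Of the counts of NF-kB pathway genes that passed, 1 moved by more than 1.5 times under the alternatives that keep all arrays: 9 genes in place of 14 at 24 h with no filter on dim probes. With median centring 82 of the 100 calls of single genes were kept, with no filter 90 and with an offset of 50, the series matrix or the mean of all probes 98 each, and with the filter of 12 arrays 96 of the 96 still tested. Of these calls 0 changed sign in any setting. The replicate block kept all 100 calls, and gave 17 genes in place of 16 at 4 d against 0 h, 8 in place of 7 at 8 d against 4 d and 25 in place of 24 in the F-test; it changed no other count. Leaving out arrays or batches gave 0 to 1 genes at 2 h, 0 to 4 at 8 h, 3 to 12 at 24 h, 1 to 10 at 2 d, 11 to 18 at 4 d, 16 to 20 at 6 d and 14 to 20 at 8 d, all against 0 h. It gave 14 to 17 at 4 d against 2 d, 2 to 7 at 8 d against 4 d and 17 to 27 in the F-test. At 8 h the count was 2 without 8 h D and 4 without batch D. The causes were not tested, beyond the fewer arrays of such fits. Dim probes (VCAM1, REL and TRAF1, and at 24 h also ICAM1 and TNFAIP2) limit what the arrays can show for these genes.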
